A study of Homo sapiens with 16 samples.

Results

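The WNT signalling genes described here are 39 of the 23284 genes in the authors' deposited expression table. They were taken by symbol and sorted by role into 16 WNT ligands, 12 receptors (the Frizzled genes FZD1 to FZD10 and the co-receptors LRP5 and LRP6) and 11 feedback targets. Their transcripts were measured in poly-adenylated RNA of WA01, an established human embryonic stem cell line, on its way to neural crest, the migratory cells that leave the border of the neural plate. Every group was plated at 20000 cells per cm2 and received 3 µM CHIR99021, which blocks the kinase GSK3 and so switches on the pathway below its receptors. Every group also received the ROCK inhibitor Y-27632 at 10 µM over the first 2 days. The 6 groups are wild type, Het and KO at day 3, called pre-neural crest in the labels, and the same lines at day 5, called neural crest. Het and KO are 1 line each, made with CRISPR/Cas9 and a single guide RNA aimed at the point where translation of FOXB1, a forkhead transcription factor gene, begins. The question was how expression changes over crest induction when the FOXB1 protein is removed.

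WNT ligands are secreted, lipid-modified proteins that bind a Frizzled receptor together with LRP5 or LRP6. The bound receptor stops GSK3 from marking β-catenin for destruction, and β-catenin then enters the nucleus and activates genes with TCF and LEF factors. Many of the activated genes feed back on the pathway: AXIN2 rebuilds the destruction complex, NKD1 and NKD2 act on Dishevelled, RNF43 and ZNRF3 remove Frizzled from the cell surface, and NOTUM strips the lipid from the ligand. WNT signals at the edge of the neural plate are known to help induce neural crest, and WNT1 and WNT3A mark the dorsal neural tube.

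The labels list 2 libraries for each line and day, with 2 isogenic wild-type lines and so 4 wild-type libraries a day. The table holds a single wild-type group per day, and which libraries entered it is not stated. Its group HOMO was read as KO. Each gene has 1 FPKM value per group (fragments scaled to transcript length and to the library's mapped fragments), so no value per library can be shown and the depth is unknown. Whether replicates came from separate cultures is not stated either, so the p-values cover only the spread that Cuffdiff, the authors' tool, modelled between libraries. FOXB1 itself stood at 18.3, 7.73 and 15.5 FPKM in wild type, Het and KO at day 3 and at 5.51, 4.47 and 1.86 at day 5. The summed level of 11 neural crest markers was 20.1, 66.6 and 86.9 FPKM at day 3 in that order of lines, and 66.5, 116 and 274 at day 5. The sums hide mixed changes. At day 3, SNAI2, NGFR and SOX8 were lower in KO than in wild type and the other crest markers higher. The largest step was that of PAX3, from 1.79 to 36.5 FPKM. Over 5 central neural progenitor markers the sums were 216, 112 and 81.8 FPKM at day 3 and 171, 124 and 60.7 at day 5. SOX2 alone stood at 155 FPKM in wild type at day 3. Pluripotency markers (5 genes) summed to 112, 68.8 and 151 FPKM at day 3 and to between 46.1 and 65.1 at day 5. At day 3, PRDM14 was lower in KO than in wild type (9.38 against 14.3 FPKM) and the other pluripotency markers were higher. Of 6 mesoderm and endoderm markers, KO held 16.2 FPKM at day 3 and the other groups between 0.642 and 2.85. MIXL1 stood at 9.35 and EOMES at 4.46 FPKM in KO at day 3. SOX17 was listed at 0 in both wild-type groups and in Het at day 5. T was at 0 in Het at day 5, and MESP1 in Het and KO at day 3. The part of these mixtures in the results below was not tested. In bulk RNA, fewer cells of a type and less RNA per cell cannot be told apart.

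WNT1 led the ligands and FZD7 led the receptors in all 6 groups. Ligand transcripts summed to 44.0, 66.2 and 45.9 FPKM in wild type, Het and KO at day 3, and to 40.1, 91.7 and 50.6 FPKM at day 5. The Het line had the highest ligand sum at either day, and WNT1 made up 55.6% of it at day 3 and 63.8% at day 5. Receptor transcripts summed to 235, 229.8 and 289 FPKM at day 3 and to 189, 163 and 111 FPKM at day 5. FZD7 supplied 65.4% of the receptor sum in KO at day 3 and 28.0% at day 5. Feedback target transcripts summed to 87.2, 145 and 166 FPKM at day 3 and to 70.4, 91.7 and 104 FPKM at day 5, lowest in wild type at either day. Of the 39 members, 22 reached 1 FPKM in every group and 32 in at least 1 group.

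Calls follow the Cuffdiff q-value of the authors' deposited table, with 0.05 as the limit. Members below Cuffdiff's own limit on low values were not tested: between 30 and 34 of the 39 were tested in each comparison, 28 in all 9 comparisons and 5 in none. At day 3 in KO, 7 of 32 tested members rose against wild type and 6 fell, while 4.34% of all 14678 tested genes rose and 5.17% fell. At day 5 in KO, 5 of 33 rose and 4 fell, against 7.58% and 5.68% of 14936 tested genes. At day 3 in Het, 5 of 31 rose and 5 fell, against 1.68% and 4.63% of 14618. At day 5 in Het, 5 of 34 rose and 0 fell, against 1.14% and 1.02% of 14561. At an unadjusted Cuffdiff p below 0.05, 8 members were higher and 3 lower in Het at day 5. The share of all tested genes at that limit was not counted, here or for the other unadjusted counts given below. All these comparisons share their wild-type groups, so their values are given side by side. In all, 19 members were called between genotypes in at least 1 comparison, and 16 members were called in none of the 9 comparisons. The share of all genes called in at least 1 comparison was not counted, so these totals cannot be set against it. The calls rest on the deposited p-values: a normal p from the deposited test scores would call 0 members in KO and 2 in Het at day 3, and 1 and 0 at day 5. The share of all tested genes that this normal p would call was not counted.

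Ligand calls in the Het line were mostly rises. At day 3, 3 of 9 tested ligands rose in Het and 1 fell, and at day 5, 4 of 12 rose and 0 fell. In KO, 1 of 10 rose and 2 fell at day 3, and 2 of 11 rose and 0 fell at day 5. The share of tested ligands called in Het was 44.4% at day 3 and 33.3% at day 5, beside 6.31% and 2.16% of all tested genes. For KO it was 30% and 18.2%, beside 9.51% and 13.3%. The median log2 change of the tested ligands was 0.42 in Het at day 3 and 0.97 at day 5, beside -0.04 and -0.03 over all tested genes. In KO the ligand medians were 0.32 and 0.56, beside -0.02 and 0.03.

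WNT1 stood at 14.8, 36.8 and 18.3 FPKM in wild type, Het and KO at day 3, and at 25.3, 58.5 and 26.2 FPKM at day 5. Het was the high line on both days, and KO lay within 1 SE of wild type. WNT1 was 2.49-fold higher in Het than in wild type at day 3 in the authors' deposited table (log2 change 1.31, SE 0.48, Cuffdiff q = 0.00476) and 2.31-fold higher at day 5 (1.21, SE 0.58, q = 0.00749). The table also has WNT1 lower in KO than in Het, by 2.01-fold at day 3 (log2 change -1.01, SE 0.47) and 2.23-fold at day 5 (-1.16, SE 0.58). Those 2 calls have Cuffdiff q-values of 0.0389 and 0.0167 in the authors' deposited table, and neither is kept when the p is recomputed from the SE scaled to the deposited p-values, an alternative added after the data were seen.

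WNT10B lies close to WNT1 on chromosome 12 (hg19, 49359123 to 49365641 for WNT10B and 49372236 to 49376396 for WNT1). Its levels were 4.30, 8.93 and 5.05 FPKM in wild type, Het and KO at day 3, and 4.26, 11.9 and 8.41 FPKM at day 5. Het was again the high line, with KO between it and wild type. In Het, WNT10B rose 2.08-fold at day 3 (log2 change 1.06, SE 0.56) and 2.8-fold at day 5 (1.49, SE 0.66), with Cuffdiff q-values of 0.036 and 0.00547 in the authors' deposited table. Expressed genes of chromosome 12 as a whole were lower in both edited lines. Their median log2 change was -0.52 in Het and -0.47 in KO at day 3, and -0.27 and -0.50 at day 5. Less the chromosome median, the changes in Het were 1.83 and 1.48 for WNT1 and 1.57 and 1.76 for WNT10B, larger than as deposited. In KO they were 0.78 and 0.55 for WNT1 and 0.70 and 1.48 for WNT10B. The WNT10B change in KO at day 5 was called after that centring with the scaled SE. As deposited it was 0.98 (SE 0.57) and was not called.

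WNT3A, a ligand of the dorsal neural tube, had its lowest level in wild type at day 3. It stood at 0.331 FPKM there, at 3.45 in Het and 1.74 in KO, and at day 5 at 3.31, 11.2 and 6.22 FPKM. Both edited lines at day 3 were thus above the wild-type level, and Het at day 3 was near wild type at day 5. WNT3A rose 10.4-fold in Het at day 3 (log2 change 3.38, SE 0.81, Cuffdiff q = 0.00126 in the authors' deposited table) and 3.37-fold at day 5 (1.75, SE 0.69). In KO it rose 5.27-fold at day 3 (2.40, SE 0.85, q = 0.0142 in the authors' deposited table). Its change in KO at day 5 was 0.91 (SE 0.58) and was not called. Both day 3 rises rest on the wild-type level of 0.331 FPKM. Neither was called when at least 1 FPKM was required in both groups. WNT3A lies on the long arm of chromosome 1, where expressed genes were higher in KO by a median log2 of 0.60 at day 3. Less its chromosome's median, WNT3A was 1.80 higher in KO at day 3.

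WNT8A, a ligand of the early embryo that acts in posterior patterning, was the only ligand lower in both edited lines at day 3 by the call rule. Its levels were 12.1, 2.59 and 4.56 FPKM in wild type, Het and KO at day 3, and 0.546, 0.984 and 0.772 at day 5. Wild type was high at day 3, and the 3 lines lay close together at day 5. WNT8A fell 4.67-fold in Het at day 3 (log2 change -2.22, SE 0.63, Cuffdiff q = 0.00126 in the authors' deposited table) and 2.65-fold in KO (-1.41, SE 0.60, q = 0.00399). At day 5 its changes were 0.85 (SE 0.85) in Het and 0.50 (SE 0.87) in KO, with no call.

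WNT4, a ligand known from kidney and reproductive tract formation, separated the lines at day 5, where its levels were low. It stood at 6.06, 8.11 and 9.69 FPKM in wild type, Het and KO at day 3, and at 0.278, 0.771 and 0.884 FPKM at day 5. At day 5 WNT4 rose 3.18-fold in KO (log2 change 1.67, SE 0.77) and 2.77-fold in Het (1.47, SE 0.79), with Cuffdiff q-values of 0.0172 and 0.0437 in the authors' deposited table. All 3 lines were below 1 FPKM at that day.

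WNT5A and WNT5B are known for signalling that does not run through β-catenin. WNT5A stood at 1.14, 0.530 and 0.406 FPKM in wild type, Het and KO at day 3 and at 1.05, 0.721 and 0.811 at day 5, highest in wild type on both days. It fell in KO at day 3 (log2 change -1.49, SE 0.67, Cuffdiff q = 0.0122 in the authors' deposited table). WNT5B stood at 0.608, 0.307 and 0.496 FPKM at day 3 and at 0.619, 0.917 and 1.73 FPKM at day 5. KO at day 5 was its highest group, a rise of 2.8-fold over wild type (log2 change 1.49, SE 0.75, Cuffdiff q = 0.036 in the authors' deposited table).

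The other 9 ligands were called in none of the 9 comparisons. WNT2B (0.828 to 1.69 FPKM over the 6 groups), WNT3 (1.20 to 2.21) and WNT7B (0.788 to 1.56) were low throughout. WNT9A ranged from 0.437 to 0.936 FPKM. WNT8B, known from the dorsal forebrain, stood at 0.101, 0.461 and 0.727 FPKM in wild type, Het and KO at day 3 and at 0.0690, 0.735 and 0.467 at day 5. Wild type was its lowest line on both days, yet its change of 2.84 (SE 1.25) in KO at day 3 was not called by Cuffdiff (q = 0.0728 in the authors' deposited table). It was called with the scaled SE, with and without centring by chromosome or GC, and at day 5 the same held in Het. WNT6, WNT7A, WNT10A and WNT11 were never tested, reached at most 0.420 FPKM, and apart from WNT11 were listed at 0 in some groups.

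Some ligand rises in Het depended on the setting. At day 5, WNT1 and WNT4 were not called when q-values were adjusted over that comparison alone, nor with the scaled SE and no centring, and WNT10B was not called at day 3 with the first of these. Genes with GC-rich transcripts stood slightly higher in Het at day 5, by a median log2 of 0.16 for the 20% with the highest GC beside -0.22 for the 20% with the lowest. Less the median of genes with similar GC, the day 5 changes in Het were 0.91 for WNT1, 1.36 for WNT10B, 1.46 for WNT3A and 1.38 for WNT4, with the same signs. None was called under that alternative, which also uses the scaled SE and was added after the data were seen, and of the 4 only WNT10B and WNT3A were called with the scaled SE alone. At day 3, where the trend had the opposite sign, the changes in Het less that median were 2.03 for WNT1, 1.49 for WNT10B and 4.10 for WNT3A, and that of WNT1 in KO was 1.09 and was called.

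**Figure D1:**
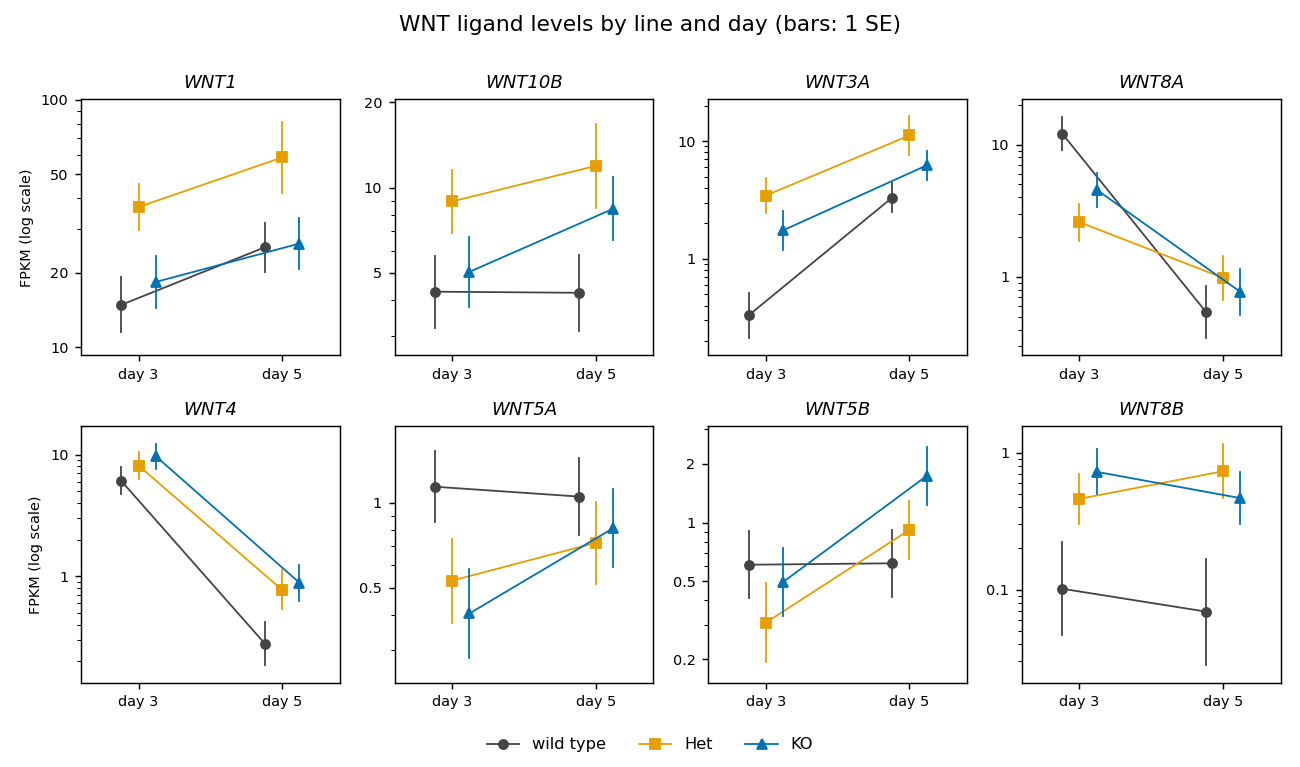
Levels of 8 WNT ligands in FPKM (log axis) at day 3 and day 5; points are the authors' group values for wild type, Het and KO, lines join the days of a line, and bars are 1 SE implied by the deposited test scores. WNT1 and WNT10B are highest in Het on both days, WNT3A rises and WNT4 falls with time in every line, and WNT8A is highest in wild type at day 3 (12.1 FPKM).

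Receptor calls were mostly falls. In KO, 1 of the 12 receptors rose and 3 fell at day 3, and 1 rose and 3 fell at day 5. In Het, 0 rose and 3 fell at day 3, and 0 of 12 were called at day 5 by Cuffdiff, with 2 lower at an unadjusted p below 0.05. The rises and falls over all tested genes were 4.34% and 5.17% for KO at day 3, 7.58% and 5.68% for KO at day 5, 1.68% and 4.63% for Het at day 3, and 1.14% and 1.02% for Het at day 5. The median log2 change of the receptors was -0.13 and -0.60 in KO at day 3 and day 5, beside -0.02 and 0.03 over all tested genes. In Het it was -0.24 and -0.19, beside -0.04 and -0.03.

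FZD2, a Frizzled gene of chromosome 17, had its lowest levels in KO. It stood at 31.2, 18.1 and 13.5 FPKM in wild type, Het and KO at day 3 and at 30.2, 22.9 and 8.33 at day 5, with Het between the other lines on both days. The fall in KO was 2.32-fold at day 3 (log2 change -1.21, SE 0.45) and 3.62-fold at day 5 (-1.86, SE 0.48), both with a Cuffdiff q of 0.00126 in the authors' deposited table. In Het it fell at day 3 (-0.79, SE 0.44, q = 0.0424 in the authors' deposited table), and its change of -0.40 at day 5 was not called. Adjusted over the day 3 comparison alone, the falls of FZD2 and FZD9 in Het were not called, and that of FZD2 was not called with the scaled SE either. At day 5 FZD2 was also 2.75-fold lower in KO than in Het (-1.46, SE 0.48, Cuffdiff q = 0.00126 in the authors' deposited table).

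FZD9 stood at 3.13, 1.28 and 1.16 FPKM in wild type, Het and KO at day 3 and at 1.78, 1.32 and 0.549 at day 5, highest in wild type on both days. In KO it fell 2.69-fold at day 3 (log2 change -1.43, SE 0.64) and 3.23-fold at day 5 (-1.69, SE 0.79), and the Het line had a 2.46-fold fall at day 3 (-1.30, SE 0.66). The Cuffdiff q-values in the authors' deposited table were 0.0327, 0.0396 and 0.0447. LRP5, a co-receptor, stood at 5.26, 2.49 and 2.58 FPKM at day 3 and at 3.00, 2.58 and 3.52 at day 5. Only wild type at day 3 stood apart. LRP5 fell 2.12-fold in Het (-1.08, SE 0.53) and 2.04-fold in KO (-1.03, SE 0.53), with Cuffdiff q-values of 0.0236 and 0.0316 in the authors' deposited table. Its partner LRP6 stayed between 15.9 and 24.0 FPKM and was not called.

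Genes with GC-rich transcripts were lower in both edited lines than in wild type at day 3. The 20% of expressed genes with the highest transcript GC had a median log2 change of -0.49 in KO and -0.48 in Het, and the 20% with the lowest GC had 0.18 and 0.22. Both lines were set against the same wild-type group, so the 2 trends are not independent. Between KO and Het at day 3 these medians were -0.008 and -0.04. Transcripts of FZD2, FZD9 and LRP5 hold 64.9%, 68.4% and 62.4% GC, above the 48.7% median of expressed genes. Less the median of genes with similar GC, the day 3 changes in KO were -0.43, -0.65 and -0.49, and those in Het -0.07, -0.58 and -0.56, and none was called under that alternative, which also uses the scaled SE and was added after the data were seen. With the scaled SE and no centring, the 6 falls were called apart from that of FZD2 in Het. Centring by chromosome, with the scaled SE, also lost that of LRP5 in Het. At day 5 in KO, where the high-GC genes had a median of 0.08, the changes of FZD2 and FZD9 less that median were -1.93 and -1.76.

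FZD1 was the only receptor that rose between genotypes. It stood at 7.66, 9.38 and 14.0 FPKM in wild type, Het and KO at day 3 and at 4.90, 6.82 and 10.6 at day 5, in the same order of lines on both days. FZD1 rose in KO at day 3 (log2 change 0.88, SE 0.49, Cuffdiff q = 0.0386 in the authors' deposited table) and at day 5 (1.12, SE 0.51, q = 0.0117). The day 3 rise was not called after centring by chromosome or by GC with the scaled SE, and was called with the scaled SE alone.

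FZD7, the most abundant Frizzled transcript in these cells, changed its rank of lines with time. It stood at 120.4, 133 and 189 FPKM in wild type, Het and KO at day 3 and at 63.5, 65.2 and 31.1 at day 5. KO had the highest level at day 3 and the lowest at day 5. At day 3 its change in KO of 0.65 (SE 0.41) was not called by Cuffdiff (q = 0.0758 in the authors' deposited table). At day 5 it was 2.04-fold lower in KO than in wild type (log2 change -1.03, SE 0.42) and 2.09-fold lower than in Het (-1.07, SE 0.42), with Cuffdiff q-values of 0.00547 and 0.00615 in the authors' deposited table.

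FZD3 and FZD6, known for their part in planar cell polarity, and FZD4, FZD5, FZD8 and FZD10 were not called between genotypes. FZD3 ranged from 17.9 to 41.2 FPKM and FZD6 from 4.38 to 8.16. FZD4 lay between 1.37 and 2.26 FPKM and FZD5 between 1.09 and 2.78.

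**Figure D2:**
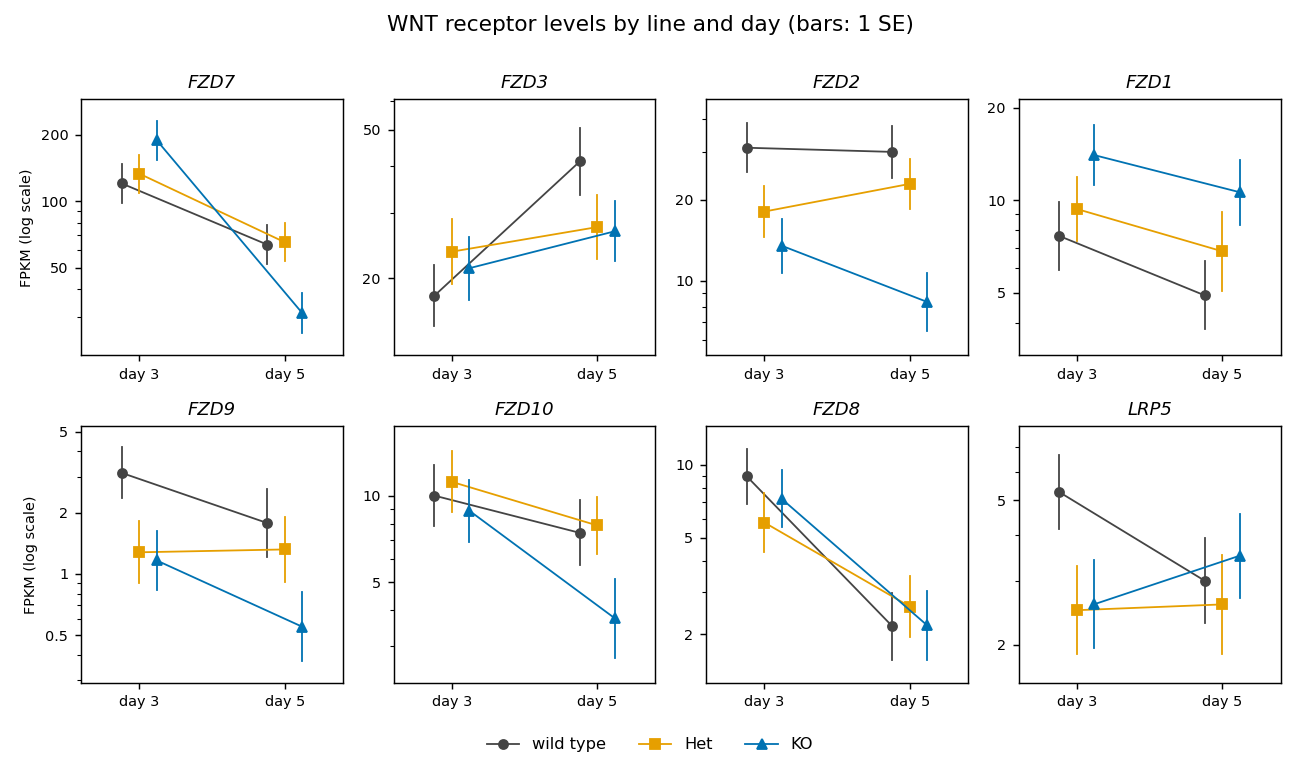
Levels of 8 WNT receptor genes in FPKM (log axis) at day 3 and day 5, with the authors' group value for each line and bars of 1 SE implied by the deposited test scores. FZD2 is lowest in KO on both days (13.5 and 8.33 FPKM), FZD1 is highest there (14.0 and 10.6 FPKM), and FZD7 goes from the highest line at day 3 to the lowest at day 5 in KO.

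Feedback target calls at day 3 were mostly rises. In KO, 5 of 10 tested rose and 1 fell, with a median log2 change of 0.95 beside -0.02 over all tested genes, of which 4.34% rose and 5.17% fell. In Het at day 3, 2 of 10 rose and 1 fell, with a median of 0.60 beside -0.04, where 1.68% and 4.63% of all genes were called. At day 5, 2 of 10 rose and 1 fell in KO (median 0.20 beside 0.03, with 7.58% and 5.68% of all genes). In Het 1 of 10 rose and 0 fell (median 0.46 beside -0.03, with 1.14% and 1.02%), and by an unadjusted Cuffdiff p below 0.05, 3 were higher and 1 lower.

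AXIN2, the scaffold of the destruction complex and a standard readout of β-catenin activity, was lowest in wild type. It stood at 20.2, 41.3 and 39.5 FPKM in wild type, Het and KO at day 3 and at 24.9, 34.7 and 46.3 at day 5. AXIN2 was 2.04-fold higher in Het (log2 change 1.03, SE 0.43, Cuffdiff q = 0.00227 in the authors' deposited table) and 1.95-fold higher in KO at day 3 (0.96, SE 0.43, q = 0.00126). It was 1.86-fold higher in KO at day 5 (0.90, SE 0.44, q = 0.0214 in the authors' deposited table), and its change of 0.48 (SE 0.48) in Het was not called.

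LEF1, a partner of β-catenin on DNA, stood at 11.1, 26.9 and 30.3 FPKM in wild type, Het and KO at day 3 and at 11.5, 16.0 and 20.8 at day 5. Wild type was again the low line on both days. At day 3 LEF1 rose 2.72-fold in KO (log2 change 1.44, SE 0.46) and 2.42-fold in Het (1.27, SE 0.47), both with a Cuffdiff q of 0.00126 in the authors' deposited table. At day 5 its changes of 0.85 (SE 0.49) in KO and 0.48 (SE 0.51) in Het were not called. The change in KO was called with the scaled SE, alone or with centring by chromosome, and not with centring by GC. The locus of LEF1 overlaps LOC641518, so reads of the pair may be shared. The factor TCF7, of the same family, was not called between genotypes and lay between 1.24 and 5.73 FPKM.

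NKD1, which restrains Dishevelled, rose in KO on both days. Its levels were 5.95, 8.35 and 11.4 FPKM in wild type, Het and KO at day 3 and 4.21, 7.20 and 11.0 at day 5, in the same order of lines each day. The changes in KO were 0.94 (SE 0.46) and 1.38 (SE 0.47) on the log2 scale, with Cuffdiff q-values of 0.0117 and 0.00126 in the authors' deposited table. Its paralog NKD2 moved the other way at day 3, from 1.62 FPKM in wild type to 0.460 in Het and 0.265 in KO, and stood at 0.901, 1.22 and 0.536 at day 5. NKD2 fell in KO (-2.61, SE 0.96) and in Het (-1.82, SE 0.79) at day 3, with Cuffdiff q-values of 0.0122 and 0.0253 in the authors' deposited table. Its transcript holds 67.2% GC, and less the median of genes with similar GC the changes were -1.84 in KO and -1.10 in Het, of which the one in Het was not called.

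SP5 and SP8 encode zinc-finger factors that are known direct targets of β-catenin in other embryos and cells. SP5 stood at 20.3, 33.3 and 45.4 FPKM in wild type, Het and KO at day 3 and at 6.75, 12.1 and 12.1 at day 5. It rose 2.23-fold in KO at day 3 (log2 change 1.16, SE 0.48, Cuffdiff q = 0.00615 in the authors' deposited table). SP8 stood at 8.61, 15.5 and 17.5 FPKM at day 3 and at 9.60, 6.06 and 3.05 at day 5, so that its order of lines turned around between the days. SP8 rose 2.03-fold in KO at day 3 (1.02, SE 0.49, Cuffdiff q = 0.0137 in the authors' deposited table) and fell 3.14-fold at day 5 (-1.65, SE 0.56, q = 0.00126). Both genes have GC-rich transcripts, and less the median of genes with similar GC the day 3 changes in KO were 1.94 for SP5 and 1.56 for SP8. Under that alternative both were called in Het at day 3 as well, where Cuffdiff had not called them.

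Promoters of 4 of these genes are printed below because they moved together with AXIN2 at day 3 in KO or, for WNT3A, had the largest rise of a ligand. Each is the 250 bases before the start of the gene, 5′ to 3′ on the gene's own strand, from RefSeq on GRCh38.p14. Capitals mark CTTTGAT or CTTTGAA, the core letters that TCF and LEF factors are known to bind, searched on both strands. A match on the opposite strand reads ATCAAAG or TTCAAAG, and the 2 motifs share all letters but the last, so they cannot match at the same place on a strand.
SP5 (chr2:170715087-170715336, plus strand): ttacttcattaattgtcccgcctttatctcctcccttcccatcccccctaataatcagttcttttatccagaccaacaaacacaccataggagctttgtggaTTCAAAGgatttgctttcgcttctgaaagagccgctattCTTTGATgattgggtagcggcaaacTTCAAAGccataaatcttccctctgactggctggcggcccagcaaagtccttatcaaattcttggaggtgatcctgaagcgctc
SP8 (chr7:20786887-20787136, minus strand): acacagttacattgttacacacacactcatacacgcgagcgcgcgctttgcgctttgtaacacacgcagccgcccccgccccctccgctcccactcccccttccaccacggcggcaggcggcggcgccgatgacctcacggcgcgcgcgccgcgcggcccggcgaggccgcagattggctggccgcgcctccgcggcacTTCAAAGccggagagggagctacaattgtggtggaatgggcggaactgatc
LEF1 (chr4:108166302-108166551, minus strand): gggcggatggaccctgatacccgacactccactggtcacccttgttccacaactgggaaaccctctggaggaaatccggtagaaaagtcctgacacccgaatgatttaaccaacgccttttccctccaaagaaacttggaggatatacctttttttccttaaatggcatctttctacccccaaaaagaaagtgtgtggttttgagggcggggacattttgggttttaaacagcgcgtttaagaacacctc
WNT3A (chr1:228006748-228006997, plus strand): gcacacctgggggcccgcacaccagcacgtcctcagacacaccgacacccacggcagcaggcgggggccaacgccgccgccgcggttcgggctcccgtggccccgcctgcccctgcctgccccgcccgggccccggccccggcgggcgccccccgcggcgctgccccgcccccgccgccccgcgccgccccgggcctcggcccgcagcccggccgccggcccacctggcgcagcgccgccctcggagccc
The SP5 window holds 3 matches, at 148 to 142, 109 to 103 and 84 to 78 bases before the start. The SP8 window holds 1, at 51 to 45 bases before it. No match lies in the windows of LEF1 and WNT3A, which says only that these letters are not there. The 25 members with an entry have 30 promoters, of which those of SP5 and SP8 were the 2 with a match (6.67%). Of all 35114 promoters of the same length, 5.94% held at least 1 (2.26% for CTTTGAT and 3.8% for CTTTGAA). The members without an entry were AXIN2, FZD2, FZD3, FZD6, FZD7, FZD10, LGR5, LRP6, NKD1, NOTUM, WNT7B, WNT10B, WNT11 and ZNRF3. A match is a run of letters and not a measured binding site.

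NOTUM, the enzyme that inactivates WNT ligands, was low, at 0.258, 0.841 and 0.991 FPKM in wild type, Het and KO at day 3 and at 0.500, 1.56 and 0.748 at day 5. It rose in Het at day 5 (log2 change 1.64, SE 0.99, Cuffdiff q = 0.0353 in the authors' deposited table), and its changes at day 3 of 1.94 (SE 0.90) in KO and 1.70 (SE 0.93) in Het were not called. The rise at day 5 was lost when q-values were adjusted over that comparison alone and with the scaled SE, whether or not changes were centred by chromosome or GC. At day 3 NOTUM was called in KO with the scaled SE, with and without that centring, and in Het only with it. The receptor-removing ligases RNF43 and ZNRF3 were not called and ranged from 1.76 to 6.99 and from 6.68 to 10.4 FPKM. RNF43 shares its locus with BZRAP1, SUPT4H1 and 3 RNA genes in the table, so its level is uncertain. LGR5, the R-spondin receptor known from intestinal stem cells, stayed between 0.0776 and 0.191 FPKM and was never tested.

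**Figure D3:**
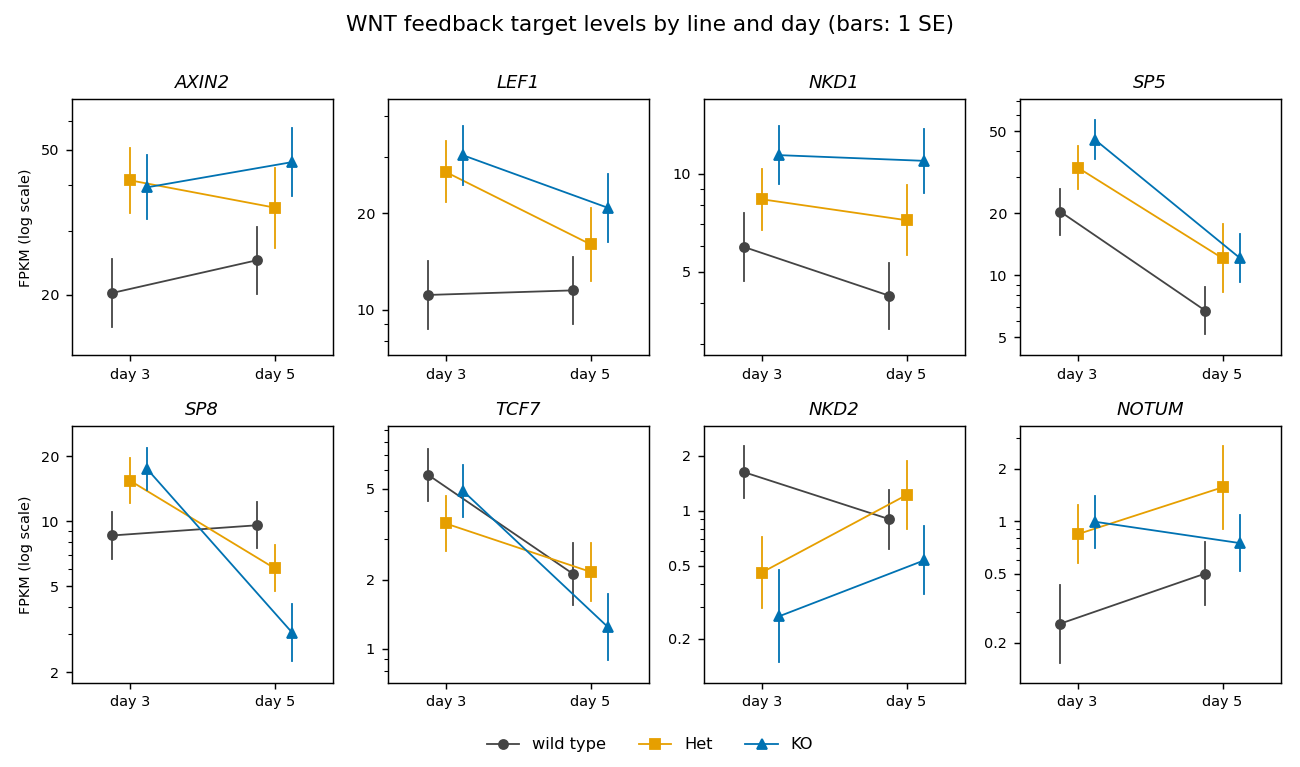
Levels of 8 WNT feedback targets in FPKM (log axis) at day 3 and day 5, with the authors' group value for each line and bars of 1 SE implied by the deposited test scores. AXIN2, LEF1, NKD1 and SP5 are lowest in wild type on both days, and SP8 is highest in KO at day 3 (17.5 FPKM) and lowest there at day 5 (3.05 FPKM).

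**Figure D4:**
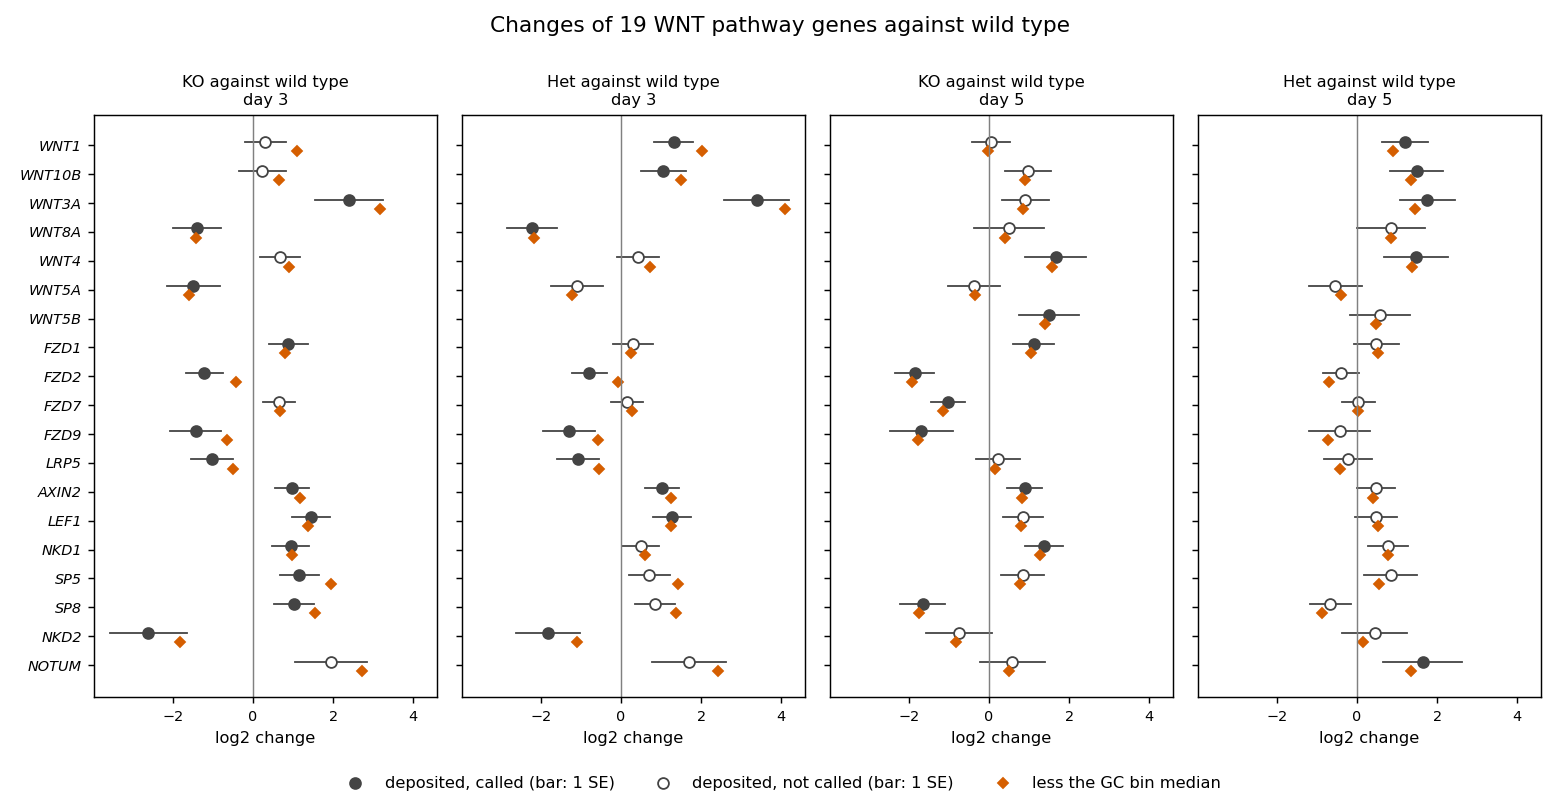
Log2 changes against wild type for the 19 members called between genotypes; filled circles are called and open circles not called in the authors' deposited table, bars are 1 SE, untested members are left blank, and diamonds give the same change less the median of genes with similar transcript GC. At day 3 the diamonds of FZD2, FZD9, LRP5 and NKD2 lie nearer 0 than the circles, and those of WNT1, WNT3A, SP5 and SP8 lie farther above 0.

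The members called between KO and Het were all lower in KO. At day 3, 0 of 30 tested members were higher in KO than in Het and 1 was lower, while 2.3% of 14624 tested genes were higher and 0.54% lower. At day 5, 0 of 34 were higher and 3 lower, against 5.55% and 2.51% of 15000. The share of members called was thus 3.33% at day 3, beside 2.84% of all tested genes, and 8.82% at day 5, beside 8.06%, so that it lay near that of all genes. At an unadjusted Cuffdiff p below 0.05, 1 member was higher and 3 lower in KO at day 3, and 1 was higher and 9 lower at day 5. The member lower at day 3 was WNT1, and those lower at day 5 were WNT1, FZD2 and FZD7, with the values given above. Cuffdiff called 0 feedback targets between the edited lines, with 0 at an unadjusted p below 0.05 at day 3 and 2 lower in KO at day 5. AXIN2 differed by -0.06 (SE 0.42) at day 3 and 0.42 (SE 0.48) at day 5, and LEF1 by 0.17 (SE 0.44) and 0.38 (SE 0.51). A missing call does not show that the lines are alike.

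Between day 3 and day 5 more members fell than rose in each line. In wild type 2 of 31 tested members rose and 6 fell, while 11.2% of 14680 tested genes rose and 10.4% fell. In Het 1 of 34 rose and 4 fell, against 4.74% and 2.83% of 14795. In KO 2 of 33 rose and 8 fell, against 7.29% and 4.53% of 14995. The share of tested members called was 25.8% in wild type, beside 21.6% of all tested genes. It was 14.7% in Het, beside 7.57%, and 30.3% in KO, beside 11.8%. WNT3A rose, and WNT4, FZD7 and SP5 fell, in all 3 lines. WNT1 went from 14.8 to 25.3 FPKM in wild type without a Cuffdiff call. This rise was called when adjusted over that comparison alone, with the scaled SE alone, and after centring by chromosome or GC. The fall of LRP5 in wild type, from 5.26 to 3.00 FPKM, was called under the same alternatives apart from centring by GC.

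WNT4 had the largest falls over time that were called in every line: 21.8-fold in wild type (log2 change -4.44, SE 0.69), 10.5-fold in Het (-3.39, SE 0.65) and 11-fold in KO (-3.45, SE 0.60). WNT8A fell 22.1-fold in wild type (-4.47, SE 0.77) and 5.9-fold in KO (-2.56, SE 0.72), and its change in Het of -1.40 (SE 0.73) was not called by Cuffdiff (q = 0.0674 in the authors' deposited table). WNT3A rose 10-fold in wild type (3.32, SE 0.77), 3.23-fold in Het (1.69, SE 0.73) and 3.56-fold in KO (1.83, SE 0.68). With at least 1 FPKM required in both groups, the calls of WNT4 were lost in every line. Those of WNT8A in wild type and KO, and of WNT3A in wild type, were lost too. Among receptors, FZD7 fell 1.89-fold in wild type (-0.92, SE 0.41), 2.05-fold in Het (-1.03, SE 0.40) and 6.07-fold in KO (-2.60, SE 0.42). SP5 fell 3.02-fold in wild type (-1.59, SE 0.53), 2.75-fold in Het (-1.46, SE 0.65) and 3.75-fold in KO (-1.91, SE 0.49). The fall of SP5 in wild type was -0.82 less the median of genes with similar GC, since high-GC genes fell there by a median of 0.53 on the log2 scale.

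SP8 and WNT5B were called over time in the edited lines alone. SP8 went from 15.5 to 6.06 FPKM in Het (log2 change -1.35, SE 0.49) and from 17.5 to 3.05 in KO (-2.52, SE 0.54), and its change in wild type was 0.16 (SE 0.51). WNT5B rose 3.49-fold in KO (1.80, SE 0.76, Cuffdiff q = 0.0364 in the authors' deposited table). Another 4 members were called over time and never between genotypes. FZD3 rose in wild type from 17.9 to 41.2 FPKM (1.20, SE 0.40) and stood at 23.5 and 27.4 in Het and at 21.2 and 26.7 in KO. FZD8 fell in wild type from 8.94 to 2.16 FPKM (-2.05, SE 0.59) and in KO from 7.23 to 2.18 (-1.73, SE 0.61), with 5.78 and 2.61 in Het. TCF7 fell in wild type from 5.73 to 2.12 FPKM (-1.44, SE 0.59) and in KO from 4.88 to 1.24 (-1.98, SE 0.61), with 3.52 and 2.16 in Het. FZD10, known from the dorsal neural tube, fell in KO from 8.88 to 3.74 FPKM (-1.25, SE 0.58), with 10.0 and 7.43 in wild type and 11.2 and 7.89 in Het.

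Whether the change over time differed between an edited line and wild type was tested directly, as a difference of log2 changes over the SE implied by the test scores. None of 34 members passed at a Benjamini-Hochberg adjusted p below 0.05 in KO or in Het, while 0.381% of 14699 genes passed in KO and 0.116% of 14710 in Het. At an unadjusted p below 0.05 there were 2 members in KO and 3 in Het. The lowest adjusted p in KO was 0.0721, that of SP8, which fell in KO and not in wild type (difference of log2 changes -2.67, SE 0.74). With the SE scaled to the deposited p-values, 2 of 34 members passed in KO, SP8 and FZD7 (difference -1.68). That share lay near the 5.39% of all genes that passed. With that scaling 1 of 34 members passed in Het, WNT8A (difference 3.07), where 1.16% of genes passed.

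Genes that surround the pathway were counted from lists of the same kind. Of 15 genes of WNT secretion and co-reception, 14 were tested in each comparison with wild type: 3 rose and 0 fell in KO at day 3, 2 rose and 2 fell in KO at day 5, and 0 rose and 1 fell in Het at each day. That is 21.4% and 28.6% of those tested in KO at day 3 and day 5, beside 9.51% and 13.3% of all tested genes, and 7.14% in Het at each day, beside 6.31% and 2.16%. WLS, the carrier that brings WNT proteins to the cell surface, rose in KO at day 3 from 91.6 to 203 FPKM (log2 change 1.15). ROR1, a co-receptor for WNT5A, rose in KO at day 3 from 29.1 to 65.1 FPKM (1.16) and at day 5 from 12.6 to 24.8 (0.98). The glypican GPC3 rose in KO at day 3 from 22.0 to 69.6 FPKM (1.66). LGR4, a receptor for R-spondins, fell at day 5 from 84.0 FPKM in wild type to 41.2 in Het (-1.03) and 22.3 in KO (-1.91). GPC4 fell in Het at day 3 from 42.2 to 23.6 FPKM (-0.84) and in KO at day 5 from 46.2 to 14.2 (-1.70). TNFRSF19 rose in KO at day 5 from 7.44 to 16.9 FPKM (1.19). All these calls are those of the authors' deposited table. Of the ligands outside the 39, WNT2, WNT9B and WNT16, none was tested in any comparison.

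Among 20 other genes known to respond to WNT in some tissues, 9 of 16 tested rose and 1 fell in KO at day 3, and 7 of 15 rose and 2 fell in Het, by the authors' deposited table. At day 5, 7 of 13 rose and 2 fell in KO, and 3 of 12 rose and 2 fell in Het. The shares of tested genes called were 62.5% and 69.2% in KO at day 3 and day 5, beside 9.51% and 13.3% of all genes, and 60% and 41.7% in Het, beside 6.31% and 2.16%. The largest changes at day 3 were those of PAX3, MSX1 and MSX2, which are also genes of the neural plate border, and of TNIK, a kinase that binds TCF factors. TNIK rose from 0.497 FPKM in wild type to 6.19 in Het (log2 change 3.64) and 11.2 in KO (4.50) at day 3, and from 1.21 to 7.79 in KO at day 5 (2.68). PAX3 rose from 1.79 FPKM to 29.3 in Het (4.04) and 36.5 in KO (4.36) at day 3, and from 9.35 to 24.6 (1.39) and 43.1 (2.21) at day 5. MSX1 rose from 0.812 FPKM to 9.42 in Het (3.54) and 13.4 in KO (4.04) at day 3, and from 4.66 to 18.4 in Het at day 5 (1.98). MSX1 also rose in KO at day 5, to 16.4 FPKM. MSX2 rose from 1.24 FPKM to 18.2 in Het (3.87) and 18.0 in KO (3.85) at day 3, and from 8.35 to 37.5 in Het at day 5 (2.17). MSX2 also rose in KO at day 5, to 31.2 FPKM. DKK1, a secreted inhibitor that binds LRP6, rose in KO at day 3 from 0.952 to 8.66 FPKM (3.18) and at day 5 from 0.424 to 2.79 (2.72). In Het it stood at 5.02 FPKM at day 3 and 0.617 at day 5. MYC, a growth regulator, fell in Het at day 5 from 7.46 to 2.21 FPKM (-1.76) and rose in KO to 208 FPKM (4.80). PAX3 is in the crest marker list as well, so these counts and the marker sums are not independent.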

How the data were processed

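Poly-adenylated RNA of 16 WA01 samples was sequenced. Reads were aligned with TopHat2 2.1.1 to hg19 and quantified and tested with Cuffdiff 2.2.1, per the submitters' processing notes; the annotation and library filters are not stated in the sources at hand. The deposited table holds FPKM per gene and group, normalised by the authors, for 6 groups and 15 comparisons, of which 9 were used. Deposited fold changes are log2 values, the deposited test score is the change over its standard error, and each deposited p-value has a q-value. The deposited q-values match Benjamini-Hochberg values computed over all 222234 tests to within 5.28e-07.

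From these, the SE of each log2 change was taken as the change over the test score (natural logarithms turned to log2), and an SE per group from sums over comparisons. Genes were called at q below 0.05, with no minimum fold. No per-library value or count was at hand, so depth and replicate spread are unknown. Fold changes used no pseudocount. The difference in time course used a 2-sided normal p with Benjamini-Hochberg adjustment, checked on simulated data. Transcript GC came from GENCODE v29 by symbol (39 of 39 members, 86.2% of genes), in 20 bins of expressed genes (at least 1 FPKM in both groups). Promoters came from RefSeq on GRCh38.p14 by symbol (25 of 39 members). Python 3.11.15 with pandas 2.3.3, numpy 2.4.6 and scipy 1.17.1 was used.

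Every member called between genotypes is named with all 6 levels, those called over time alone with their levels by day, and the rest by range; of the surrounding lists, the called genes with the largest changes are named, up to 4 per list and comparison with wild type. The members and lists were chosen with earlier results of these data known. Alternatives were a stricter q, a minimum fold or level, adjustment within a comparison, a normal p from the score, pseudocounts of 0.1 and 1, and centring by all genes, by chromosome and, added after the data were seen, by GC or with the scaled SE alone; calls after centring by chromosome or GC use the scaled SE too.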

Additional observations from a re-analysis of the deposited data

Results flagged for a closer look

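The difference in time course between an edited line and wild type passed for 3 members, only with the SE scaled to the deposited p-values. With the full SE, none of 34 members passed in either line. With that scaling, SP8 and FZD7 passed in KO out of 34 members, a share near the 5.39% of all 14699 genes. In Het, WNT8A passed out of 34 members, beside 1.16% of 14710 genes. SP8 differed between KO and wild type by -2.67 on the log2 scale, with a fall in KO from 17.5 to 3.05 FPKM. FZD7 differed between KO and wild type by -1.68, with the steepest fall in KO, from 189 to 31.1 FPKM. WNT8A differed between Het and wild type by 3.07, with a fall in wild type from 12.1 to 0.546 FPKM and levels of 2.59 and 0.984 FPKM in Het.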

How the results depend on the processing

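Of 76 counts of called members under an alternative, 51 stayed within 1.5 times the reported count, and of 1460 values of single members 52 moved by more than their SE and 0 called values reversed. With q below 0.01, 5 members were called in KO and 5 in Het at day 3, 4 in KO and 3 in Het at day 5, and 0 between KO and Het at day 3. A normal p of the deposited test score called 0 in KO and 2 in Het at day 3, 1 in KO and 0 in Het at day 5, 0 between KO and Het at either day, and 4, 1 and 6 over time in wild type, Het and KO. Adjusted within each comparison, 2 were called in Het at day 5 and 0 between KO and Het at day 3. With at least 1 FPKM in both groups, 3 were called in Het at day 5 and 5 over time in wild type. Centring by chromosome with the scaled SE left 0 between KO and Het at day 3, as did the scaled SE alone. Of the alternatives chosen after seeing the data, the scaled SE alone called 3 in Het at day 5 and 0 between KO and Het at day 3, and centring by GC with the scaled SE called 1 and 0. The share of all tested genes called under each of these settings was not counted, so these member counts cannot be set against it. The difference in time course called 2 of 34 members in KO and 1 of 34 in Het with the scaled SE, where 5.39% and 1.16% of all genes passed. What caused the remaining changes was not tested. No scaling moved the median of expressed genes by over 0.1. No paired analysis was possible because the table holds 1 value per group, and leaving out a replicate could not be done for the same reason. Changes of genes near 0 FPKM are the least precise.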

Other observations

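Genes that carry the WNT signal inside the cell were counted in the same way. By the calls of the authors' deposited table, KO had 2 rises and 1 fall among 22 tested cytoplasmic and nuclear components at day 3, and 2 rises and 0 falls among 23 at day 5. Het had 1 rise and 1 fall among 22 at day 3, and 2 rises and 0 falls among 22 at day 5. The shares called were 13.6% and 8.7% in KO at day 3 and day 5, beside 9.51% and 13.3% of all tested genes, and 9.09% in Het at each day, beside 6.31% and 2.16%. TLE4, a co-repressor that binds TCF and LEF factors, rose from 17.2 FPKM in wild type to 38.8 in Het (log2 change 1.18) and 42.3 in KO (1.30) at day 3. TLE1, of the same family, rose from 8.78 FPKM to 17.0 in Het (0.96) and 31.2 in KO (1.83) at day 5. CTNNBIP1, an inhibitor of β-catenin and TCF binding, rose at day 5 from 20.4 FPKM to 41.8 in Het (1.04) and 52.3 in KO (1.36). BCL9, a co-activator of β-catenin, rose in KO at day 3 from 18.5 to 32.3 FPKM (0.80). It lies on the long arm of chromosome 1, where expressed genes were higher in KO at day 3 by a median log2 of 0.60. Less that median, the change of BCL9 was 0.20. DVL1, which relays the receptor's signal, fell at day 3 from 15.5 FPKM to 7.42 in Het (-1.06) and 6.02 in KO (-1.36). Its transcript holds 66.0% GC, and less the median of genes with similar GC the changes were -0.34 and -0.58.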
